A study of Mus musculus with 20 samples.

Results

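*Lef1* and *Tcf7* are the genes of 2 DNA-binding partners of β-catenin, and this account follows their mRNA through 20 libraries of cultured mouse nephron progenitor cells (NPCs). The rule that chose them goes by symbol: the deposited comparison tables pair the symbol *Lef1* with ENSMUSG00000027985 and *Tcf7* with ENSMUSG00000000782, and these are 2 of the 31130 genes in the deposited table of normalized counts. A gene has a symbol there only if the authors' tables list it, which favours genes that differ. Both passed the filter on low values in every fit. Within the family, *Tcf7l1* also has an identifier paired with a symbol, and *Tcf7l2* does not and was not analysed here.

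The cells were primary NPCs from E16.5 kidneys of crosses between a strain that makes Cas9-eGFP in all tissues and SWR/J, so that every group, controls included, was of the Cas9-eGFP genotype. They were lipofected with single guide RNAs and mCherry mRNA, kept for a knockout period of 48 h, and then given CHIR for another 24 h, at 1.25 µM (low CHIR) or at 5 µM (high CHIR), before the transfected cells were sorted. CHIR99021 inhibits the kinase GSK3β, which marks β-catenin for destruction, so that more CHIR leaves more β-catenin. CTRL cells received a guide against GFP (3 libraries in each CHIR dose), α-catenin KO cells a guide against *Ctnna1* (2 each), QCKO cells guides against *Cdh2*, *Cdh3*, *Cdh4* and *Cdh11* (2 each), and β-catenin KO cells a guide against *Ctnnb1* (3 each). Each library is a mixed population of transfected cells and not a clone, and transfection does not show that a cell's gene was edited.

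Lef/Tcf proteins bind DNA through an HMG box and have little effect alone. With β-catenin bound to their N terminus they activate Wnt target genes, and without it they recruit Groucho/Tle corepressors. *Lef1* and *Tcf7* are best known from T-cell development and are themselves Wnt targets in many tissues, whereas the related *Tcf7l1* acts mostly as a repressor. In the kidney, Wnt/β-catenin input turns a self-renewing NPC, marked by *Six2* and *Cited1*, into a cell that starts the nephron program with *Wnt4*, *Jag1* and *Lhx1*. Both genes also have internal start sites whose products lack the β-catenin-binding N terminus. The values here are counts per gene and do not separate these forms.

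In the RefSeq annotation of GRCm38.p6, *Lef1* spans chr3:131110297-131224357 on the plus strand, with 9 transcripts, and *Tcf7* spans chr11:52246527-52283383 on the minus strand, with 11 transcripts. The 3′ end of *Tcf7* overlaps that of *Skp1* (chr11:52230522-52246858). The library kit does not mark strand, so reads in the overlap cannot be told apart. RefSeq promoter windows, which run from 250 bases before to 50 after a start site, number 4 for *Lef1* and 2 for *Tcf7*. Windows of 2 *Lef1* starts and of 1 *Tcf7* start are shown because the members moved together and because the Lef/Tcf core letters lie in the internal *Lef1* window alone. They are given 5′ to 3′ on the gene's strand, with capitals marking CTTTGA or CTTTGT on either strand (TCAAAG or ACAAAG when read on the other strand).
Lef1, outermost start, chr3:131110047-131110346, plus strand: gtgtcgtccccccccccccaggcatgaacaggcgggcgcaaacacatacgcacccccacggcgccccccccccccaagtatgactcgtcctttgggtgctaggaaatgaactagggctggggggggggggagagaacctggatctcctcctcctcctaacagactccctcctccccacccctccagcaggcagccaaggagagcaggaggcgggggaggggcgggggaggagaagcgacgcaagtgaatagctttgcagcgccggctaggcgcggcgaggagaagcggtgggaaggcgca
Lef1, internal start, chr3:131156044-131156343, plus strand: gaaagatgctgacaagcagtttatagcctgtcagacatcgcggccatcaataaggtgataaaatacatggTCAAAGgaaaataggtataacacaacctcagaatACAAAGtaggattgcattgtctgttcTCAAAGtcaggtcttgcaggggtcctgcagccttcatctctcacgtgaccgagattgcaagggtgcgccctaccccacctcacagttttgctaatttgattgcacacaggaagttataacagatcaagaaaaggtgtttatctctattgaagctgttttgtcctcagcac
Tcf7, chr11:52282546-52282845, minus strand: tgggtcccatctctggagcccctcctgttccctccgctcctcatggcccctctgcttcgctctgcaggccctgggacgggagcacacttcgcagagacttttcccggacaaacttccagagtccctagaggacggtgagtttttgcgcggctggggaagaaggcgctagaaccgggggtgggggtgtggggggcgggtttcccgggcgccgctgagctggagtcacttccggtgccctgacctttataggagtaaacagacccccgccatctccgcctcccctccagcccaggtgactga

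The internal *Lef1* window holds TCAAAG at 180 and 120 bases before the start site (first base of each match) and ACAAAG at 146 bases before it. The other 3 *Lef1* windows and both *Tcf7* windows hold neither motif. Of all 32851 windows of this length, 16% hold CTTTGA on either strand, 18.7% hold CTTTGT and 31.2% hold at least 1 of the 2. A match of 6 letters describes this window and is not evidence of binding, and a window without a match says only that the letters are not in it.

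Read counts recovered from the normalized values were 18124772 to 28472412 per library, with a median of 21449823. *Lef1* rested on 58 to 95 reads in the low CHIR libraries of β-catenin KO replicate 1 and of the other 3 groups, and *Tcf7* on 80 to 738 reads in all libraries. The targeted gene *Ctnna1* was at 40.4% of CTRL in α-catenin KO in low CHIR and 47.4% in high CHIR. *Cdh11* was at 50% and 40.2% of CTRL in QCKO, and *Cdh2*, *Cdh3* and *Cdh4* were at 63.5% to 127% with overlapping libraries. A frameshift need not lower the mRNA. From immunofluorescence of transfected cells, the paper reports that Cdh2 and Cdh11 protein could no longer be detected and that most α-catenin, Cdh3 and Cdh4 was gone. It reports similar efficiency for combined guides. *Ctnnb1* has no identifier paired with a symbol in these tables, so its mRNA was not analysed here. β-catenin KO replicate 1 stood apart from β-catenin KO replicates 2 and 3, and each fitted comparison of *Lef1* and *Tcf7* that uses β-catenin KO is given with both libraries of replicate 1 and without them. The NPC markers *Six2*, *Cited1* and *Eya1* were at 773 or more normalized counts in every low CHIR library. None of the 10 T-cell markers looked for, and only *Tek* of 8 endothelium markers, *Laptm5* of 8 leukocyte markers, *Meis1* and *Meis2* of 10 stroma markers and 4 of 11 ureteric epithelium markers, has an identifier here. In CTRL, *Tek* was at 0 to 3.25 in low CHIR and 89.7 to 177 in high CHIR, *Laptm5* at 26.0 to 52.9 and 0 to 2.27, the summed ureteric markers at 279 to 837 and 841 to 1007, and the summed stroma markers at 3221 to 3819 and 1030 to 1510, so that these differed between the CHIR doses too. In high CHIR the summed ureteric markers were at 1199 to 1988 in α-catenin KO and 1699 to 1859 in QCKO, above every CTRL library, and at 537 to 1027 in β-catenin KO (382 to 851, 474 to 665 and 435 to 744 in low CHIR). *Tek* in high CHIR was at 92.7 to 383, 221 to 357 and 4.62 to 85.3 in these knockouts, against 0.867 to 7.64 in low CHIR. The summed stroma markers were at 2328 to 4318 in low CHIR and 1109 to 1666 in high CHIR over the 3 knockouts, and their part in the results was not tested. Fewer cells with a transcript and less transcript per cell cannot be told apart in these bulk samples.

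In CTRL cells *Lef1* rose 17.5-fold and *Tcf7* 2.89-fold from low to high CHIR, and *Tcf7l1* fell to 0.316 of its low CHIR mean. *Lef1* was at 62.5, 72.6 and 66.7 normalized counts in low CHIR replicates 1, 2 and 3 and at 1118, 948 and 1465 in high CHIR replicates 1, 2 and 3. Every high CHIR library was far above every low CHIR library. The log2 fold change of *Lef1* was 4.09 (standard error 0.21, limma adjusted p = 2.9e-07, 95% interval 3.64 to 4.54), and 0.381% of the genes tested increased more. *Tcf7* was at 172, 157 and 152 in low CHIR and at 445, 371 and 578 in high CHIR, again without overlap. Its log2 fold change was 1.5 (standard error 0.22, limma adjusted p = 0.00081, 95% interval 1.03 to 1.98). A gene was called where its adjusted p was below 0.05 and its log2 fold change beyond 0.5 in size. Of the 16516 genes tested, 10.7% were called in this comparison, 4.84% as higher and 5.82% as lower in high CHIR. With all 20 libraries in the fit, *Tcf7* no longer passed (adjusted p = 0.057).

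*Skp1*, the overlapping neighbour, encodes a core part of SCF ubiquitin ligases and was at 7455 to 20634 normalized counts over the libraries. Its highest value, 20634, was in CTRL high CHIR replicate 2, which had the lowest *Tcf7* of the CTRL high CHIR libraries (371). Its log2 fold change between high and low CHIR in CTRL was 0.57 (limma adjusted p = 0.14) and was not called. The share of *Tcf7* counts that lies in the overlap was not tested.

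*Tcf7l1* moved the other way. It was at 2004, 2246 and 1733 in low CHIR and at 714, 624 and 554 in high CHIR in CTRL, without overlap, with a log2 fold change of -1.66 (limma adjusted p = 5.9e-05). Among the 3 family members with an identifier, the 2 that are known mainly as activators thus rose and the member known mainly as a repressor fell. Levels are not compared between genes here because the values are not divided by transcript length.

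**Figure D1:**
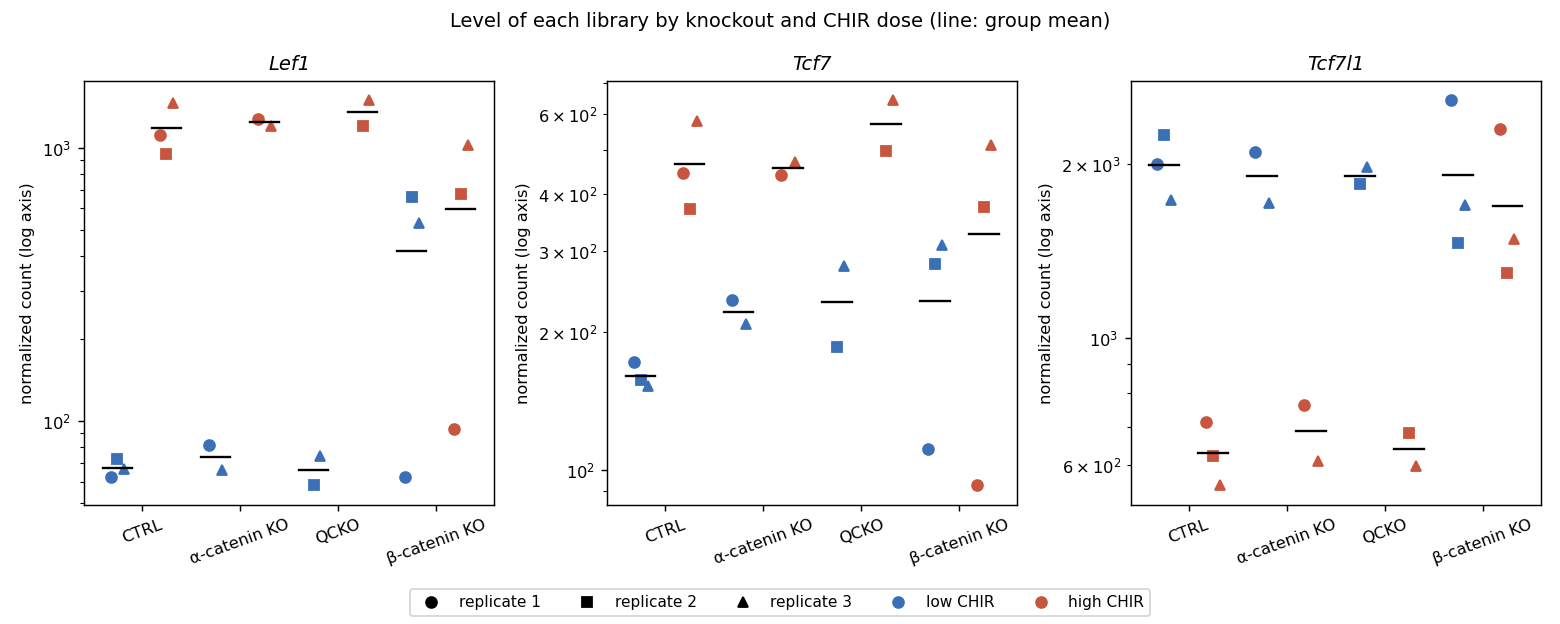
Normalized count (log axis) of *Lef1*, *Tcf7* and *Tcf7l1* in each of the 20 libraries by knockout, with low CHIR in blue, high CHIR in red, marker shape for the replicate number and a line at the group mean. *Lef1* was at 58.1 to 81.7 in the 7 low CHIR libraries outside β-catenin KO and at 948 to 1492 in their 7 high CHIR libraries, whereas the β-catenin KO libraries of replicates 2 and 3 lie between 532 and 1020 at either dose.

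*Lef1* and *Tcf7* also rose with CHIR in the cells whose guides were aimed at adhesion partners of β-catenin. α-catenin links β-catenin to actin, and the cadherins bind β-catenin at the membrane. In α-catenin KO, *Lef1* was at 81.7 and 66.2 in low CHIR (replicates 1 and 3) and at 1279 and 1204 in high CHIR, a 16.8-fold difference of the means. In QCKO it was at 58.1 and 74.2 in low CHIR (replicates 2 and 3) and at 1205 and 1492 in high CHIR, a 20.4-fold difference. The log2 fold changes of *Lef1* were 4.06 in α-catenin KO (standard error 0.25, limma adjusted p = 4.9e-06) and 4.33 in QCKO (standard error 0.25, limma adjusted p = 2.8e-06). In α-catenin KO 4.39% of the genes were called (2.4% higher and 1.99% lower in high CHIR), and in QCKO 4.93% (2.62% and 2.31%).

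*Tcf7* followed with smaller changes. In α-catenin KO it was at 235 and 208 in low CHIR and at 441 and 470 in high CHIR, and its log2 fold change was 1.04 with a limma adjusted p = 0.047 and a standard error of 0.27. In QCKO it was at 186 and 279 in low CHIR and at 497 and 642 in high CHIR, and its log2 fold change was 1.31 with a limma adjusted p = 0.012 and the same standard error. The libraries did not overlap in either knockout. The α-catenin KO call lies close to the threshold and was lost when any 1 of its 4 libraries was left out (adjusted p = 0.16 to 0.23) with edgeR (0.057), with no filter on low values (0.074), with only the groups compared (0.052) and with all 20 libraries in the fit (0.48). The QCKO call was lost with all 20 libraries (0.32, as was that in CTRL, 0.057), without QCKO low CHIR replicate 2 (0.16) and without QCKO high CHIR replicate 3 (0.15). *Tcf7l1* fell in both knockouts, by 1.47 on the log2 scale in α-catenin KO (limma adjusted p = 0.0013) and by 1.58 in QCKO (0.00061).

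Neither member passed the test against CTRL in these knockouts. In high CHIR the log2 difference of α-catenin KO from CTRL was 0.10 for *Lef1* (95% interval -0.40 to 0.60) and -0.01 for *Tcf7* (-0.53 to 0.52), and that of QCKO was 0.21 for *Lef1* (-0.29 to 0.71) and 0.31 for *Tcf7* (-0.22 to 0.83). The share of genes called was 0% in both comparisons with limma (928 and 1444 genes at an unadjusted p under 0.05) and with edgeR, and DESeq2 called 4 and 7 genes. The unadjusted limma counts were 3173 and 3357 without CTRL high CHIR replicate 1, and 288 and 675 with only the groups compared, again with 0 called. In low CHIR the *Lef1* differences were 0.13 for α-catenin KO (-0.37 to 0.63) and -0.03 for QCKO (-0.53 to 0.47). The upper ends of these intervals, 0.47 to 0.83 on the log2 scale, leave room for a difference and do not show equality.

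Between these knockouts and CTRL, the libraries of a member did not overlap in 1 case, *Tcf7* in low CHIR. All 3 CTRL libraries, at 152 to 172, lay below both α-catenin KO libraries (235 and 208) and both QCKO libraries (186 and 279). The means were 138% and 145% of CTRL. An exact permutation test on the means gave p = 0.10 for each knockout, the lowest that 2 against 3 libraries allow. The share of all genes whose libraries lie apart in this way was not counted. The log2 differences were 0.46 (95% interval -0.07 to 0.99) and 0.50 (-0.03 to 1.03), and neither passed the limma threshold (adjusted p = 1 for both, unadjusted p = 0.082 and 0.061). The QCKO difference was 0.21 without QCKO low CHIR replicate 3 and 0.79 without QCKO low CHIR replicate 2. The share of genes called was 0% for α-catenin KO (109 genes at an unadjusted p under 0.05, edgeR 0 and DESeq2 1 called) and 0.00605% for QCKO. Both comparisons share the 3 CTRL libraries. Within a replicate number, *Tcf7* was at 136% of CTRL in α-catenin KO replicates 1 and 3, and at 118% and 183% in QCKO replicates 2 and 3.

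The difference between the responses to CHIR was tested as an interaction. For *Lef1* it was -0.03 on the log2 scale in α-catenin KO against CTRL (95% interval -0.74 to 0.68) and 0.24 in QCKO against CTRL (-0.47 to 0.95). For *Tcf7* it was -0.47 (-1.21 to 0.28) and -0.20 (-0.94 to 0.55). The share of genes called was 0% in both interactions (258 and 213 genes at an unadjusted p under 0.05), and edgeR and DESeq2 also called 0. Without CTRL high CHIR replicate 1 the unadjusted limma counts were 1280 and 792, and with only the groups compared 144 and 179, with 0 called in each.

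A replicate number stands for one date in the labels of all groups, which allows the response to be read within a date. *Lef1* was higher in high CHIR in 10 of 10 such pairs and *Tcf7* in 9 of 10. The log2 response of *Lef1* was 4.14, 3.69 and 4.44 in CTRL replicates 1, 2 and 3, 3.95 and 4.16 in α-catenin KO replicates 1 and 3, and 4.35 and 4.31 in QCKO replicates 2 and 3. The log2 response of *Tcf7* in the same pairs was 1.36, 1.23 and 1.92, then 0.90 and 1.17, then 1.42 and 1.20. In each of these pairs the response of *Lef1* exceeded that of *Tcf7* by 2.46 to 3.11 on the log2 scale. Over all pairs, β-catenin KO included, *Lef1* had the larger response in 9 of 10.

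**Figure D2:**
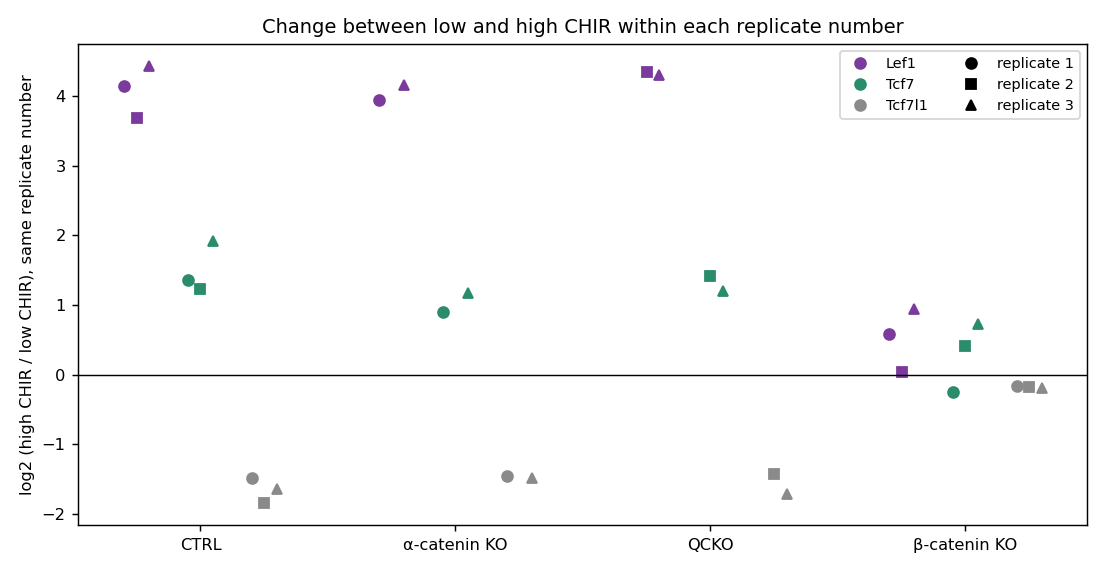
Log2 ratio of high to low CHIR within each replicate number for *Lef1* (purple), *Tcf7* (green) and *Tcf7l1* (grey) by knockout, with 1 point per pair of libraries. The 7 pairs without β-catenin KO lie between 3.69 and 4.44 for *Lef1*, and the 3 β-catenin KO pairs lie between 0.04 and 0.94.

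In β-catenin KO neither member was called with limma between high and low CHIR, against CTRL at either dose or against α-catenin KO or QCKO in high CHIR with all libraries in the fit, and the 3 cultures did not move alike. *Lef1* was at 62.3, 660 and 532 in low CHIR replicates 1, 2 and 3, and at 93.6, 677 and 1020 in high CHIR. Replicate 1 was thus close to the CTRL low CHIR level (62.5 to 72.6) at both doses, and replicates 2 and 3 were already high in low CHIR. What separates replicate 1 from replicates 2 and 3 was not tested. *Tcf7* was at 111, 282 and 310 in low CHIR and at 92.4, 376 and 513 in high CHIR, with replicate 1 below and replicates 2 and 3 above every CTRL low CHIR library. The log2 response to CHIR within a replicate number was 0.58, 0.04 and 0.94 for *Lef1* and -0.26, 0.41 and 0.73 for *Tcf7*.

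The fold of the means was 1.43 for *Lef1* and 1.40 for *Tcf7*. The limma log2 fold changes were 0.52 (standard error 0.77, adjusted p = 1) and 0.29 (standard error 0.48, adjusted p = 1), and 0.018% of the 16691 genes tested were called (0.00599% higher and 0.012% lower in high CHIR). Without replicate 1 they were 0.49 and 0.57, and neither was called. The 95% intervals, -1.12 to 2.16 for *Lef1* and -0.73 to 1.32 for *Tcf7*, are wide: the SD of the log2 values of *Lef1* was 1.87 in β-catenin KO low CHIR and 1.84 in high CHIR, against 0.11 and 0.32 in CTRL. Each limma fit uses the same spread of a gene for all its groups. The *Lef1* intervals with β-catenin KO, here and below, are therefore narrower than the spread of the β-catenin KO libraries alone would give.

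In low CHIR, β-catenin KO replicate 1 had 99.8% of the *Lef1* of CTRL replicate 1, and replicates 2 and 3 had 909% and 799% of their CTRL. The log2 difference over all 3 was 2.05 (standard error 0.77, 95% interval 0.41 to 3.69), which did not pass with limma (adjusted p = 0.62) in a comparison that called 0.0659% of the genes, all of them higher in β-catenin KO. It was called with DESeq2 (2.64, adjusted p = 0.0059), and with limma once both β-catenin KO libraries of replicate 1 were left out (3.12, adjusted p = 2.9e-06), but not where its low CHIR library alone was left out (adjusted p = 0.056), nor without replicate 2 (1.43, adjusted p = 0.84) or replicate 3 (1.59, adjusted p = 0.61). Leaving out both libraries of replicate 1 was chosen after seeing the data and removes most of the spread, so its low p is no support for the difference. *Tcf7* was at 64.3%, 179% and 203% of CTRL in the same pairs, and its log2 difference of 0.41 was not called (limma adjusted p = 0.97), nor that of 0.88 without replicate 1 (adjusted p = 0.13).

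In high CHIR, the 3 β-catenin KO libraries had 8.37%, 71.4% and 69.6% of the *Lef1* of the CTRL library with their number. The β-catenin KO mean was at 50.7% of the CTRL mean, and the highest β-catenin KO library (1020) was above the lowest CTRL library (948). The log2 difference of *Lef1* was -1.52 (standard error 0.77, 95% interval -3.16 to 0.12, limma adjusted p = 0.21), in a comparison that called 10.5% of the genes (7.67% higher and 2.86% lower in β-catenin KO). Without replicate 1 it was -0.48 (adjusted p = 0.23). *Tcf7* was at 20.8%, 101% and 88.8% of CTRL by replicate number, with a log2 difference of -0.80 (standard error 0.48, limma adjusted p = 0.29), which was -0.056 without replicate 1 (adjusted p = 0.91). Against α-catenin KO in high CHIR the log2 differences were -1.62 for *Lef1* and -0.80 for *Tcf7* (limma adjusted p = 0.43 and 0.58, with 2.14% of genes called, 1.75% higher and 0.395% lower), and against QCKO they were -1.74 and -1.11 (limma adjusted p = 0.37 and 0.35, with 3.12% of genes called, 2.4% higher and 0.713% lower). Without replicate 1 these were -0.58 and -0.051 against α-catenin KO and -0.69 and -0.36 against QCKO, and none of the 4 was called with limma.

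The response of *Lef1* to CHIR was smaller in β-catenin KO than in CTRL, with an interaction of -3.57 on the log2 scale (standard error 1.09, 95% interval -5.89 to -1.25). That difference did not pass with limma (adjusted p = 0.20), in an interaction that called 0.671% of the genes (0.533% as higher and 0.138% as lower), nor with the replicate block (adjusted p = 0.057). It passed with DESeq2 (-3.64, adjusted p = 0.0047), without β-catenin KO low CHIR replicate 1 (-4.65, adjusted p = 0.014), and without both β-catenin KO libraries of replicate 1 (-3.60, adjusted p = 0.00020), but not without those of replicate 2 (-3.33, adjusted p = 0.40) or replicate 3 (-3.78, adjusted p = 0.33). The fit without both libraries of replicate 1 was again chosen after seeing the data. For *Tcf7* the interaction was -1.21 (standard error 0.68, limma adjusted p = 0.56), it was -0.93 without replicate 1 (adjusted p = 0.29), and it ran from -1.70 to -0.46 with 1 library left out, the latter without β-catenin KO high CHIR replicate 1.

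*Tcf7l1* was called in the same libraries. In β-catenin KO it was at 2582, 1462 and 1702 in low CHIR and at 2302, 1297 and 1486 in high CHIR, so that all 3 high CHIR libraries were above the 3 CTRL high CHIR libraries (554 to 714). The log2 difference from CTRL in high CHIR was 1.39 (standard error 0.23, limma adjusted p = 0.0014), and the interaction was 1.48 (standard error 0.32, limma adjusted p = 0.042), a call that was lost in most of the fits without 1 library. Replicates 2 and 3, with *Lef1* at 677 and 1020 and *Tcf7* at 376 and 513 in high CHIR, thus had *Tcf7l1* at 1297 and 1486, between its CTRL high and low CHIR libraries.

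**Figure D3:**
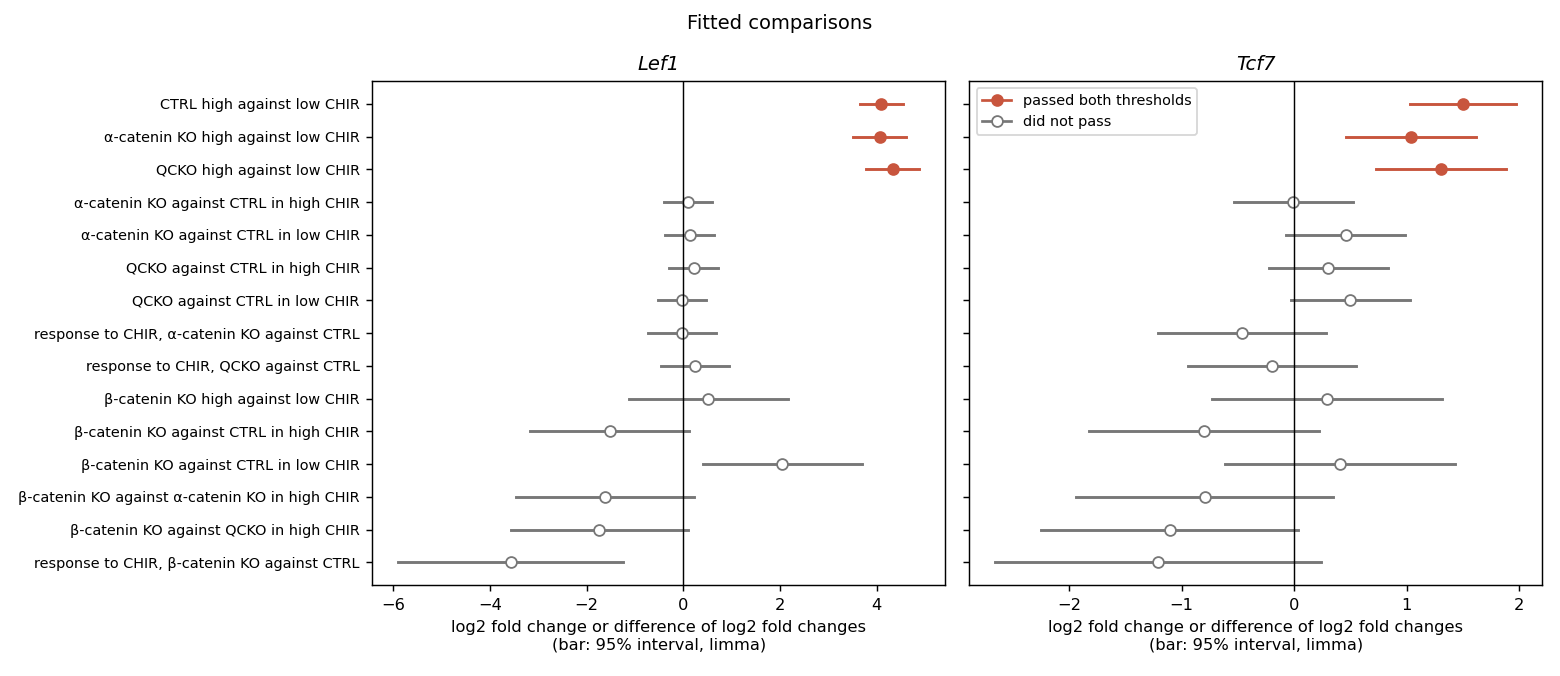
Fitted log2 fold changes, or differences of log2 fold changes, of *Lef1* (left) and *Tcf7* (right) in the 15 comparisons, with 95% intervals from limma. Filled red points passed both thresholds, which was so for the 3 comparisons of high with low CHIR outside β-catenin KO, and the intervals of the comparisons with β-catenin KO are the widest.

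Ordered by group mean, *Lef1* ran from QCKO low CHIR (66.2 ± 11.4, SD, n = 2), CTRL low CHIR (67.2 ± 5.07, n = 3) and α-catenin KO low CHIR (74.0 ± 11.0, n = 2) through β-catenin KO low CHIR (418 ± 315, n = 3) and high CHIR (597 ± 468, n = 3) to CTRL high CHIR (1177 ± 263, n = 3), α-catenin KO high CHIR (1242 ± 53.0, n = 2) and QCKO high CHIR (1349 ± 203, n = 2). The libraries of all neighbours in that order overlapped. Outside β-catenin KO, however, the low CHIR libraries (58.1 to 81.7) lay far below the high CHIR libraries (948 to 1492). *Tcf7* ran from CTRL low CHIR (161 ± 10.4) through α-catenin KO low CHIR (221 ± 19.1), QCKO low CHIR (232 ± 65.8) and that of β-catenin KO (234 ± 108) to β-catenin KO high CHIR (327 ± 215), α-catenin KO high CHIR (455 ± 20.8), CTRL high CHIR (464 ± 105) and QCKO high CHIR (569 ± 102), with the same n. Among its neighbours, CTRL and α-catenin KO in low CHIR did not overlap, and all others did.

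The rest of the pathway was read from lists of known genes. Since having a symbol favours genes that differ, the shares called are higher than in a full list. Of 14 Wnt feedback targets, *Axin2*, *Notum*, *Sp5* and *Lgr5* have an identifier, and 3 of these 4 rose from low to high CHIR in CTRL and in both adhesion knockouts, where 4.84% (CTRL), 2.4% (α-catenin KO) and 2.62% (QCKO) of all genes were called higher, with 0 lower by limma or edgeR and *Lgr5* lower by DESeq2 in CTRL and α-catenin KO (unadjusted p under 0.05 for 4 of 4 in both). The median log2 fold change of the 4 in CTRL was 3.77, against -0.01 over all genes tested. *Sp5* was at 0 in all CTRL low CHIR libraries, so its fitted value depends on the pseudocount. *Axin2*, which encodes a scaffold of the β-catenin destruction complex, was at 39.3, 71.5 and 61.4 in CTRL low CHIR and at 357, 435 and 391 in CTRL high CHIR (limma adjusted p = 1.5e-05). *Lgr5*, an R-spondin receptor, had a log2 fold change of -0.90 in CTRL and was not called (limma adjusted p = 0.10).

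The same split of the β-catenin KO cultures was seen in *Axin2*, *Notum* and *Sp5* of these 4 targets and in *Wnt4*, but not in *Lgr5*, which was at 232 to 356 in β-catenin KO low CHIR (250 to 561 in CTRL) and at 97.5 to 155 in high CHIR (178 to 215 in CTRL). *Axin2* was at 14, 560 and 384 in β-catenin KO low CHIR replicates 1, 2 and 3 and at 18.5, 743 and 687 in high CHIR. *Notum*, which encodes a secreted enzyme that inactivates Wnt proteins, was at 1.07, 562 and 325 in β-catenin KO low CHIR, against 3.57 to 6.50 in CTRL low CHIR. *Sp5* was at 0, 83.0 and 59.3 in the same β-catenin KO libraries. *Wnt4*, an inducer of the nephron program, was at 30.1, 831 and 634 in β-catenin KO low CHIR, against 41.1 to 72.6 in CTRL low CHIR. Replicate 1 was below CTRL in *Axin2*, *Notum* and *Wnt4* and replicates 2 and 3 were above it. In low CHIR 0 of the 4 feedback targets were called in β-catenin KO against CTRL with limma (1 at an unadjusted p under 0.05) or edgeR, and 2 with DESeq2. With 0.0659% of all genes called with limma, the count of 0 says nothing particular about these targets. With limma 3 were higher without both β-catenin KO libraries of replicate 1, where 202 of 16613 genes were called higher, and 0 without replicate 2 or without replicate 3.

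The 7 self-renewal genes all have identifiers, and all 7 fell from low to high CHIR in CTRL and in both adhesion knockouts, with a median log2 fold change of -3.73 in CTRL, where 5.82% of all genes were called lower (1.99% in α-catenin KO and 2.31% in QCKO). All 7 were higher in β-catenin KO than in CTRL in high CHIR, where 7.67% of all genes were called higher, and 6 to 7 of 7 stayed so without each β-catenin KO replicate number in turn. *Six2*, a transcription factor that keeps NPCs undifferentiated, was at 798, 409 and 467 in β-catenin KO high CHIR replicates 1, 2 and 3, against 64.1 to 83.8 in CTRL high CHIR. Replicates 2 and 3 thus had *Lef1* and *Tcf7* above every CTRL low CHIR library together with *Six2* above every CTRL high CHIR library. Of 12 induction genes, 9 have an identifier, and 8 of these rose and *Bmper*, which encodes a secreted regulator of BMP signalling, fell in CTRL, where 4.84% of all genes were called higher and 5.82% lower. In β-catenin KO 0 of the 9 were called between the doses with limma (2 at an unadjusted p under 0.05), edgeR or DESeq2, in a comparison that called 0.018% of all genes, so that this count says nothing particular about the induction genes. Against CTRL in high CHIR, 1 of the 9 was called higher and 2 lower in β-catenin KO with limma (median log2 difference -1.83). Of all genes, 7.67% were called higher and 2.86% lower there.

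**Figure D4:**
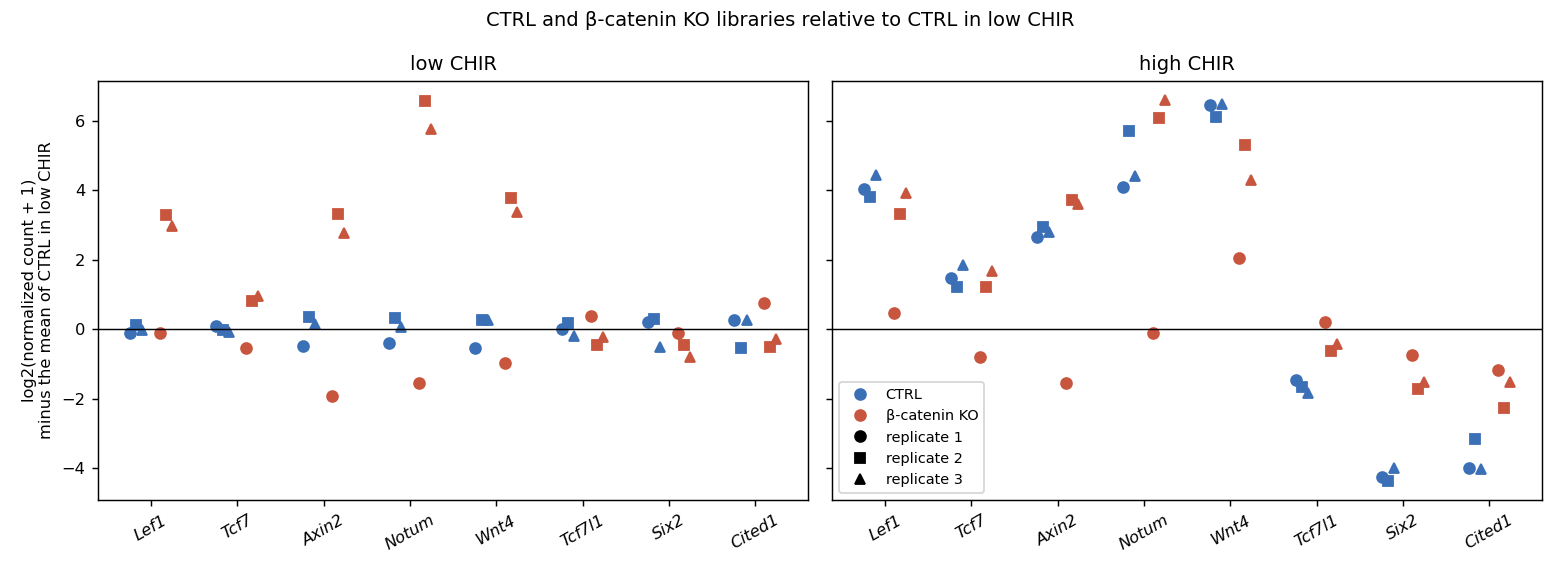
Log2(normalized count + 1) of 8 genes in CTRL (blue) and β-catenin KO (red) libraries, minus the mean of CTRL in low CHIR, in low CHIR (left) and high CHIR (right), with marker shape for the replicate number. In low CHIR, β-catenin KO replicates 2 and 3 lie above CTRL for *Lef1*, *Tcf7*, *Axin2*, *Notum* and *Wnt4*, replicate 1 does not, and the groups overlap for *Tcf7l1*, *Six2* and *Cited1*.

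Of 24 cofactors and corepressors of the Lef/Tcf-β-catenin complex, 4 have an identifier. *Bcl9l*, a coactivator that binds β-catenin, fell by 1.56 on the log2 scale in CTRL (limma adjusted p = 0.0012), from 739 to 805 in low CHIR to 168 to 336 in high CHIR, where 5.82% of all genes were called lower. It also fell in QCKO (by 1.21, limma adjusted p = 0.030, 2.31% of genes lower). In α-catenin KO 0 of the 4 were called with limma or edgeR, and 1 was lower with DESeq2. With limma, *Bcl9l* (-0.90, adjusted p = 0.13) alone had an unadjusted p under 0.05 there. Limma called 4.39% of all genes in that comparison (1.99% lower), so the count of 0 says nothing particular about these 4. In CTRL, *Tle2*, a Groucho corepressor, fell by 1.21 (limma adjusted p = 0.042). *Tle3* (-0.55, adjusted p = 0.17) and *Hipk2* (-1.25, adjusted p = 0.11), a kinase that acts on Lef/Tcf factors, were not called in CTRL. Without CTRL high CHIR replicate 2, *Bcl9l* alone of the 4 was called. In β-catenin KO against CTRL in high CHIR, *Bcl9l* was higher by 1.45 (limma adjusted p = 0.0036, with 7.67% of genes called higher) and the other three were not called.

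The genes whose pattern was most like that of each member were found by Pearson correlation of log2 values over the 20 libraries, among 2868 other genes with a symbol and a mean of at least 100 normalized counts. For *Lef1* these were *Arhgef3* (r = 0.98), *Cthrc1* (0.978), *Aopep* (0.967), *Syk* (0.966) and *Sptlc3* (0.966), and the most opposed were *Plxdc2* (-0.922) and *Tafa2* (-0.919). For *Tcf7* they were *Arl4c* (0.945), *Slc16a1* (0.938), *4933415A04Rik* (0.934), *Kif5c* (0.932) and *Ccnjl* (0.930), and the most opposed were *Ssbp2* (-0.893) and *Vkorc1* (-0.886). The members correlated with each other at r = 0.89 (Spearman rho = 0.887), which placed *Tcf7* 77th among the genes most like *Lef1* and *Lef1* 28th among those most like *Tcf7*. The points share the CHIR doses and dates, and the symbols favour genes that differ, so these values are a description. The split of the β-catenin KO cultures was part of the likeness: *Cthrc1*, which encodes a secreted matrix protein, was at 12.9, 1104 and 1120 in β-catenin KO low CHIR replicates 1, 2 and 3, against 21.4 to 69.3 in CTRL low CHIR. *Arl4c*, a small GTPase gene, was at 44.1, 330 and 343 there, against 92.8 to 183 in CTRL low CHIR.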

How the data were processed

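Messenger RNA of sorted NPCs was sequenced in 20 libraries. The deposited signal values are normalized counts: the authors scaled each library's whole reads by a single size factor. The submitters' processing notes name bcl2fastq, STAR, featureCounts, Salmon and DESeq2, and the builds GRCm38, GRCh38 and mm10, with no roles. Symbols came from the authors' comparison tables, which pair 4316 genes with a symbol. Their log2 ratios and p-values were not used. Groups came from the labels, and replicate numbers stand for a date that the titles share, whose meaning they do not state. Deviations from group means correlated at 0.0474 to 0.721 within the 10 pairs. The block fit rests on that shared date. The study calls its replicates biological. The labels do not say whether cultures came from separate animals, so p-values measure the spread between these cultures.

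Log2(normalized count + 1) was fitted in R 4.3.3 with limma 3.58.1 (mean-variance trend, Benjamini-Hochberg), with a mean of at least 10, over 14 libraries, or 20 where β-catenin KO was compared. Intervals are at 95%. Alternatives were other filters, pseudocounts of 0.25 and 5, quantile normalization, other library sets, a replicate block, a log2 fold change over 1, and edgeR 4.0.16 and DESeq2 1.42.0 on reads recovered from whole steps, which are less certain in 2 libraries with a size factor close to 1. Scripts were tested on simulated data. The members, the lists and the rule for named genes (members, family, listed genes, and the 5 most and 2 least like each member) were chosen with earlier results of these data known. Leaving out both β-catenin KO libraries of a number was added after seeing the data.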

Additional observations from a re-analysis of the deposited data

Results flagged for a closer look

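The response of *Tcf7l1*, the family member known mainly as a repressor, differed between β-catenin KO and CTRL by 1.48 on the log2 scale in a limma interaction test (standard error 0.32, adjusted p = 0.042). In CTRL it fell from 1733 to 2246 normalized counts in low CHIR to 554 to 714 in high CHIR, and in β-catenin KO it was at 1462 to 2582 in low CHIR and 1297 to 2302 in high CHIR. The interaction did not pass with only the groups compared (1.48, adjusted p = 0.18), quantile normalization (1.33, adjusted p = 0.10), no filter on low values (1.48, adjusted p = 0.054) or edgeR (1.47, adjusted p = 0.051), and it passed with DESeq2 (1.46, adjusted p = 0.0044). It was also lost in most of the fits without 1 library (1.24 to 1.72, adjusted p up to 0.14) and without β-catenin KO replicate 2 (adjusted p = 0.073) or replicate 3 (adjusted p = 0.19) at both doses.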

How the results depend on the processing

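The response of *Lef1* to CHIR in CTRL, α-catenin KO and QCKO kept its call in all 47 alternative values. Over both members, 30 results gave 542 alternative values, of which 510 kept their direction and their side of the threshold, 12 lost a call, 5 gained one and 15 changed sign. All 15 sign changes came from leaving out 1 library in results that were not called. With all 20 libraries in the fit, whose spread includes β-catenin KO, the response of *Tcf7* was no longer called in CTRL (1.5, adjusted p = 0.057), α-catenin KO (1.04, adjusted p = 0.48) or QCKO (1.31, adjusted p = 0.32). The α-catenin KO response of *Tcf7* was also lost with no filter on low values (1.04, adjusted p = 0.074), with edgeR (1.03, adjusted p = 0.057) and with only the groups compared (1.04, adjusted p = 0.052). For *Lef1*, DESeq2 called the difference of β-catenin KO from CTRL in low CHIR (2.64) and the interaction (-3.64), and limma called both without β-catenin KO replicate 1 at both doses (3.12 and -3.6), a fit added after seeing the data. The replicate block, which rests on shared dates, changed no call of either member (interaction of *Lef1* -3.57, adjusted p = 0.057). With 1 library left out at a time, log2 values of *Lef1* ran from -0.044 to 0.27 for α-catenin KO against CTRL in high CHIR, from -0.020 to 0.28 in low CHIR, from -0.20 to 0.14 for QCKO against CTRL in low CHIR, from -0.18 to 0.14 for the α-catenin KO interaction, from -0.56 to 1.56 for the response in β-catenin KO and from -4.65 to -2.53 for its interaction, called without β-catenin KO low CHIR replicate 1 (-4.65). Those of *Tcf7* ran from 0.95 to 1.13 for the response in α-catenin KO, from 1.02 to 1.6 in QCKO and from -0.19 to 1.04 in β-catenin KO, from -0.16 to 0.16 for α-catenin KO against CTRL in high CHIR and from -0.49 to 0.10 for the QCKO interaction. The QCKO interaction of *Lef1* ran from 0.068 to 0.42. For QCKO against CTRL in high CHIR, log2 values of *Lef1* ran from 0.057 to 0.38 and those of *Tcf7* from 0.12 to 0.49. For β-catenin KO against CTRL, those of *Lef1* ran from -2.19 to -0.48 in high CHIR and from 1.43 to 3.12 in low CHIR, and those of *Tcf7* from -1.29 to -0.056 and from 0.14 to 0.88, with no call gained or lost. Those of *Tcf7l1* ran from -0.42 to 0.059 for the response in β-catenin KO, and its higher level in β-catenin KO in high CHIR was not called with only the groups compared (1.39, adjusted p = 0.0503). Where a call was lost or gained otherwise, the cause was not tested. The number of genes called moved from 1760 to between 761 and 2986 in CTRL, from 725 to between 281 and 1186 in α-catenin KO, from 814 to between 368 and 1855 in QCKO and from 3 to between 0 and 57 in β-catenin KO for high against low CHIR. For β-catenin KO it moved from 1757 to between 240 and 3060 against CTRL in high CHIR, from 11 to between 0 and 203 in low CHIR, from 358 to between 72 and 1243 against α-catenin KO, from 520 to between 124 and 977 against QCKO, and from 112 to between 25 and 400 for the interaction. Of the 5 genes most like each member, 1 for *Lef1* and 3 for *Tcf7* were also among the 5 by Spearman correlation, and 2 and 0 by correlation over the 8 group means.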
